A study of Homo sapiens with 18 samples.

Results

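The genes of thyroid hormone synthesis were followed in RNA of FTC-133, an established cell line from a human follicular thyroid carcinoma. The members are TG, SLC5A5, TSHR, DUOX1, DUOX2, SLC26A4 and IYD, and all probe sets whose only annotated symbol is one of these 7 genes were taken, which gave 11 of 54675 probe sets. The array names 19775 genes through probe sets of 1 symbol. TSHR and DUOX1 have 3 probe sets each and the other genes 1 each. The RNA came from untreated cells grown under standard conditions, and 1 hybridization mix of this single RNA sample was placed on 3 HG-U133 Plus 2.0 arrays, named A, B and C. The experiment asked how probe signals change with the number of stringent washing cycles. Each staining round began with no stringent cycle on array A, 2 cycles on array B and 6 cycles on array C. Counted from the hybridization, 17 stringent cycles preceded the second staining on array A, 21 on array B and 12 on array C. After staining, arrays B and A were scanned at 0, 2, 7 and 17 additional stringent cycles, were then stained again, and were scanned once more at 0, 2, 7 and 17 additional cycles. Array C was scanned once after each staining, so that 18 scans are available. Scans after the re-labelling are called the second series and scans after the first staining the first series.

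Thyroid hormone is built on thyroglobulin, the large protein encoded by TG that follicle cells secrete into the follicle lumen. The sodium/iodide symporter, encoded by SLC5A5, brings iodide into the cell, and pendrin, encoded by SLC26A4, exchanges anions at the apical membrane. DUOX1 and DUOX2 encode the oxidases that supply the hydrogen peroxide for iodination, IYD encodes the deiodinase that recovers iodide from iodotyrosines, and TSHR encodes the receptor of thyroid-stimulating hormone. These genes mark differentiated follicle cells, and they are often weak in thyroid carcinoma cells in culture.

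DUOX2 and DUOX1 are neighbours on chromosome 15 and are read in opposite directions. Their promoter windows are shown to identify this pair. All arrays carry the same RNA, so differences between scans have no bearing on the promoters. Each run is the RefSeq sequence of the GRCh38.p14 build, read 5′ to 3′ on the strand of the gene, with 250 bases before and 50 bases after the start. Capitals mark matches to a TATA box, searched as TATAAA, and to a GC box, searched as GGGCGG, on either strand.
DUOX2, chr15:45114123-45114422, minus strand: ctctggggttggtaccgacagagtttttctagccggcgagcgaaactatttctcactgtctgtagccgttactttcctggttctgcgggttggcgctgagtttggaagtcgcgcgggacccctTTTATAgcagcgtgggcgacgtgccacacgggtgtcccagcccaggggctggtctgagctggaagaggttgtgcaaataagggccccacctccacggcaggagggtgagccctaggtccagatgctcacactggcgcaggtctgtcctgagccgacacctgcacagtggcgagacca
DUOX1, chr15:45129744-45130043, plus strand: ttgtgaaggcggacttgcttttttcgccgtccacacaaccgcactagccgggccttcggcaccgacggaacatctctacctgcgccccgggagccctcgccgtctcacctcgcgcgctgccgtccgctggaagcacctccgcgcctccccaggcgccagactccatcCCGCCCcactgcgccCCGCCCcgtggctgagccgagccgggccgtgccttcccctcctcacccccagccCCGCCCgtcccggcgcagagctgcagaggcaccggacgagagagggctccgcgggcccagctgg

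The DUOX2 window held 1 TATA box match, no GC box match, 18 CpG and 60.3% G and C. The DUOX1 window held 3 GC box matches, no TATA box match, 35 CpG and 73.0% G and C. Of 35116 promoter windows of the same length, 11.5% held TATAAA and 45.0% held GGGCGG. Windows were found for 5 of the 7 genes, namely DUOX1, DUOX2, SLC26A4, SLC5A5 and TSHR, and among these SLC26A4 held both motifs and SLC5A5 a GC box match. The letters CAAGTG, which also form an E-box of the type CANNTG, occurred in 11.5% of all windows and in 0 of these 5, and TGACGTCA occurred in 1.85% of all windows and in 0 of these 5. A match describes the letters of a window and is not a measured site.

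The synthesis genes gave weak signals. The values are MAS5 signals, which combine the perfect-match and mismatch probes of a probe set into 1 intensity on a linear scale, and each scan had been scaled to an equal trimmed mean. Probe sets bind their targets with unequal strength, so a signal or its percentile within a scan describes a probe set and does not order the genes by abundance. On array C after the first staining, the 11 probe sets lay between 1.43 and 87.7, with a median of 28.7, and 10 of them were below the scan median of 51.0. Only SLC5A5, at the 62.7th percentile of that scan, was above it. Over all 18 scans, 50 of the 198 member values were above the median of their own scan and 0 exceeded 500. Whether such weak signals come from the transcripts of these genes or from binding of unrelated transcripts was not tested. If a transcript was present, few cells with it and little of it in each cell cannot be told apart in bulk RNA.

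The same scan gave strong signals for transcription factors of the thyroid follicle. NKX2-1, which drives thyroid development, had 766 and PAX8, its partner in that role, had 757, both near the 90th percentile of the scan (89.5 for NKX2-1 and 89.4 for PAX8). Over the 18 scans NKX2-1 stayed between 533 and 926 and PAX8 between 728 and 1310. HHEX, a homeobox factor, had 176, and FOXE1, a forkhead factor named here after its values were seen because it was the only one of the 4 factors below the scan median, had 39.9. For these lists each gene stands as its brightest probe set on this scan, of which TSHR and DUOX1 have 3 and PAX8 has 8, so genes with several probe sets are shown at their highest. Taken so, the 7 synthesis genes had percentiles of 0.6 to 62.7 and 1 of 7 above the scan median, while 15 genes of other tissues, such as albumin and insulin, had percentiles of 4.8 to 80.3 and 5 of 15 above it. The highest of the 15 was CALCA, a gene of the parafollicular C cells, at 309, so that list also holds a thyroid cell type. The median signal was 38.9 for the synthesis genes, which is the value of the brightest TSHR probe set (19.7 as the mean over its 3 probe sets on the log2 scale), and 39.6 for the genes of other tissues. Of 6 epithelial markers 4 lay above the scan median, and all 4 mesenchymal markers were bright, between 1916 and 21880.

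**Figure D1:**
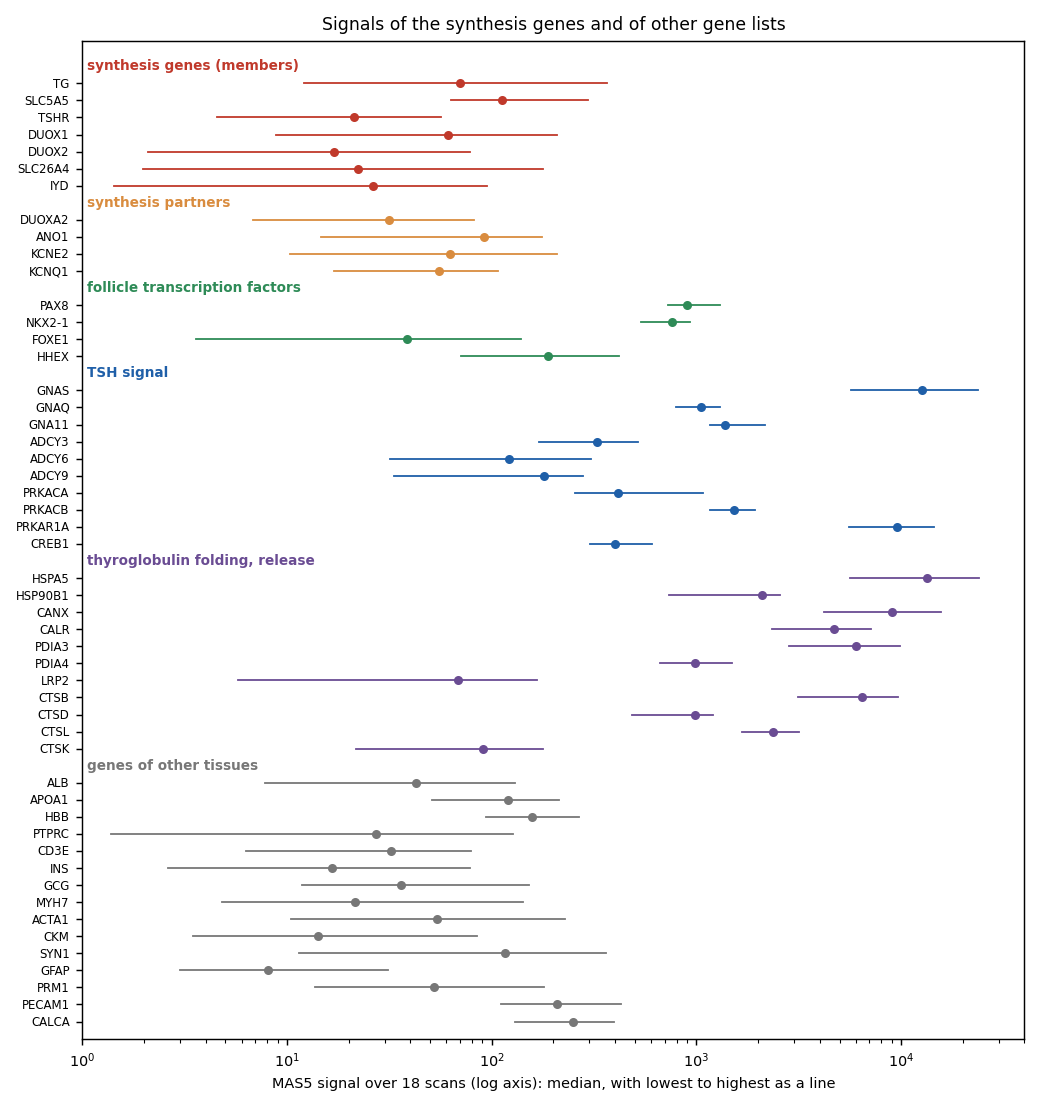
MAS5 signal of the synthesis genes and of 5 other gene lists on a logarithmic axis, with the median over 18 scans as a point and the lowest to the highest scan as a line. The lines of the 7 synthesis genes end at or below 365, as the line of TG does, whereas PAX8 and NKX2-1 stay above 533 in every scan.

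TG had its highest signal on array A, at 0 additional cycles of the first series. On array B its signal was 32.9, 53.5, 40.4 and 12.1 at 0, 2, 7 and 17 additional cycles of the second series, and 44.7, 90.1, 84.6 and 78.2 in the first series. On array A the same steps gave 210.0, 109.6, 160.1 and 148 in the second series, and 365, 151, 58.2 and 44.9 in the first series. The 2 scans of array C gave 61.7 in the second series and 40.7 in the first series. The medians were 49.1 on array B and 149.5 on array A, and the ranges of the arrays overlapped. Each later step of the first series on array A was lower than the one before, which was not so on array B. The percentile of TG within its scan was 79.8 on array A before the additional cycles and 35.0 after 17 of them.

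SLC5A5 was the steadiest member. Its signal on array B was 136, 91.2, 112.0 and 83.0 in the second series at 0, 2, 7 and 17 additional cycles, and 106, 113, 69.3 and 65.4 in the first series. On array A it was 134, 169.6, 63.5 and 228 in the second series, and 296, 195, 139 and 131 in the first series. Array C gave 98.3 in the second series and 87.7 in the first series. The highest of its 18 scans exceeded the lowest 4.66-fold, and it was below the scan median in 1 scan. With each scan centred on its median, the SD of its log2 signals was 0.42, which is at the 7.2nd percentile of all probe sets, against a median SD of 1.24 for the 11 members and 0.88 for all probe sets. Spread depends on signal, and probe sets with signals on array C close to that of SLC5A5, between 76.9 and 138 after the first staining, had a median SD of 0.76.

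SLC26A4 had the widest range of the 11 probe sets, 89.6-fold between its highest and lowest scan. The lowest value, 1.99, lay at the 0.9th percentile of its scan, so this ratio rests on a value near the floor. On array B its signal was 20.3, 4.70, 1.99 and 2.87 at 0, 2, 7 and 17 additional cycles of the second series, and 5.72, 11.1, 5.55 and 24.3 in the first series. On array A it was 111, 67.5, 48.8 and 15.5 in the second series, and 178, 32.2, 64.9 and 8.37 in the first series. Array C gave 56.97 in the second series and 28.7 in the first series. The scan of array A at 0 additional cycles was the highest in each series. Array B exceeded array A at 1 of 8 matched steps, the last of the first series. The suffix of this probe set, 206529_x_at, is the array maker's mark for probes that may also bind unrelated transcripts.

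The 3 probe sets of TSHR did not move together. For 215443_at the signal on array B was 12.7, 5.69, 4.27 and 6.77 in the second series and 6.65, 3.89, 2.98 and 2.86 in the first series. On array A it was 66.9, 56.2, 70.4 and 53.8 in the second series and 48.5, 66.5, 11.2 and 15.7 in the first series. Array A was higher at every matched step, while array C, with 8.67 in the second series and 6.16 in the first series, lay within the range of array B. The probe set 210055_at ranged from 2.66 to 29.0 on array B and from 7.12 to 71.7 on array A. Its highest value was on array A at 0 additional cycles of the second series. The probe set 215442_s_at, whose suffix marks probes shared by several transcripts, ranged from 4.57 to 41.2 on array B and from 5.03 to 47.2 on array A. All 3 were below the scan median in all 18 scans.

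DUOX1 was separated by array in 2 of its 3 probe sets. The share of all probe sets with ranges apart was not counted, but 24.5% of all were lower on array B at all 8 matched steps. For 215800_at array B gave 14.9, 16.5, 54.1 and 54.5 in the second series and 45.5, 17.2, 49.3 and 35.2 in the first series. Array A gave 233, 175, 115 and 96.9 in the second series and 220.0, 204.5, 179 and 111 in the first series. No scan of array B reached any scan of array A, and array C was lower still, with 9.66 in the second series and 4.04 in the first series. The probe set 1565795_at was also separated between arrays B and A, from 11.9 to 62.5 on array B and from 92.7 to 208 on array A, with 11.9 and 8.81 on array C in the second and the first series. The probe set 219597_s_at was weak everywhere, from 4.45 to 20.4 on array B and from 4.15 to 31.0 on array A.

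DUOX2 varied more than nearly all probe sets, with an SD of 1.98, at the 99.8th percentile. Probe sets with signals between 33.9 and 51.0 on array C after the first staining, as DUOX2 had, had a median SD of 1.02. Its last scans of the second series, 2.08 on array B and 2.60 on array A, lay at percentiles 1.0 and 0.3 of their scans. This SD therefore rests in part on values near the floor. On array B its signal was 8.03, 14.5, 23.5 and 2.08 in the second series and 25.5, 78.0, 57.8 and 65.4 in the first series. On array A it was 12.2, 11.2, 3.12 and 2.60 in the second series and 30.2, 3.44, 19.7 and 3.51 in the first series. Array C gave 77.0 in the second series and 41.6 in the first series. High values therefore came from array B in the first series and from array C.

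IYD was below the scan median in all 18 scans. Array B gave 12.0, 14.3, 10.6 and 14.7 in the second series and 4.69, 8.15, 2.39 and 26.2 in the first series. Array A gave 67.9, 29.2, 29.1 and 28.8 in the second series and 95.0, 49.6, 26.2 and 29.6 in the first series. On array C the signal was 44.8 in the second series and 1.43 in the first series, which is the lowest of its 18 values. On array A the scan at 0 additional cycles was the highest of each series.

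**Figure D2:**
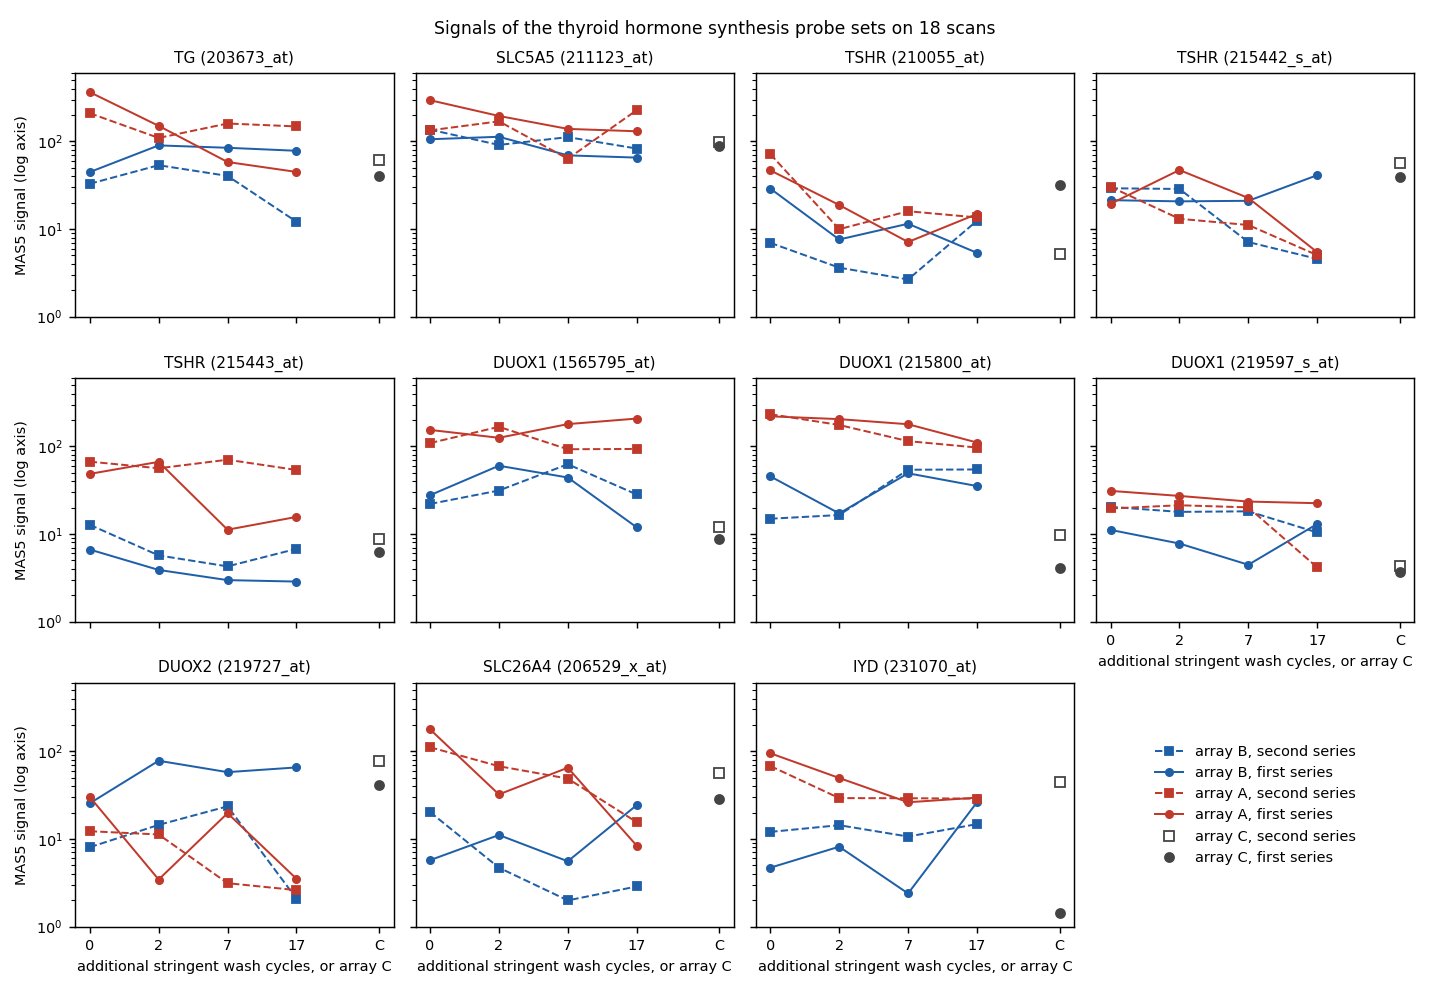
MAS5 signal (logarithmic axis) of each of the 11 probe sets against the number of additional stringent wash cycles, for array B (blue) and array A (red) in the second series (squares, dashed) and the first series (circles, solid), with array C at the right. For DUOX1 (215800_at) the blue points stay at or below 54.5 and the red points at or above 96.9, while for DUOX2 the blue circles of the first series reach 78.0.

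Washing after staining was tested as 17 against 0 additional cycles, with limma on log2 signals of arrays B and A and with the array as a block. All arrays carry the same RNA and the scans of an array are repeated measurements, so p-values measure only the technical spread between these scans. After the first staining, 0 of the 11 probe sets and 0% of all probe sets passed an adjusted p of 0.05. At an unadjusted p under 0.05, 0 members were higher and 2 were lower, against 3.5% higher and 13.9% lower among all probe sets. The pair was TSHR (210055_at), with a log2 change of -2.05 (SE 0.61, limma adjusted p = 0.234), and SLC5A5, with -0.94 (SE 0.31, limma adjusted p = 0.252). The median log2 change was -0.87 for the members and -0.45 for all probe sets, and 4 of the 11 lay above the median of all. TG had -1.11 (SE 1.02, limma adjusted p = 0.587) and SLC26A4 -1.16 (SE 1.60, limma adjusted p = 0.720), with standard errors as large as the changes.

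These large errors came with opposite directions on the arrays. TG was 1.75-fold higher after 17 cycles than before them on array B and 8.14-fold lower on array A. SLC26A4 was 4.25-fold higher on array B and 21.3-fold lower on array A. DUOX2 was 2.57-fold higher on array B and 8.6-fold lower on array A. On array A it ended at 3.51, at percentile 1.1 of its scan, which is near the floor. Counted over all members, 5 of 11 were lower after 17 cycles on array B, where 62.8% of all probe sets were lower, and 10 of 11 were lower on array A, where 67.1% of all were lower. DUOX1 (1565795_at) was the exception on array A, at 1.35-fold higher.

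After the second staining, 0 of the 11 probe sets and 0% of all probe sets again passed the adjusted threshold with limma. At an unadjusted p under 0.05, 0 members were higher, against 2.55% of all, and 3 were lower, against 11.6% of all. They were TSHR (215442_s_at), with a log2 change of -2.63 (SE 0.46), SLC26A4, with -2.83 (SE 0.64), and DUOX1 (219597_s_at), with -1.60 (SE 0.45), each with a limma adjusted p of 0.329. SLC26A4 was lower on both arrays in this series, 7.07-fold on array B and 7.17-fold on array A. TSHR (215442_s_at) was likewise 6.39-fold lower on array B and 6.02-fold lower on array A. It ended at 4.57 on array B and 5.03 on array A, at percentiles 6.3 and 1.6 of these scans. SLC26A4 ended at 2.87 and 15.5, at percentiles 2.3 and 14.3. Most of these end values are near the floor. In total 7 of 11 members were lower on array B, where 64.0% of all probe sets were lower, and 10 of 11 on array A, where 63.3% were lower. The median log2 change was -0.78 for the members and -0.24 for all probe sets. The difference between the washing changes of the second and the first series was tested as an interaction in limma. It passed for 0 of 11 members and 0% of all probe sets, with members' adjusted p of 0.678 to 0.989. At an unadjusted p under 0.05 it gave 0 members, against 4.91% of all probe sets with a more positive and 2.58% with a more negative change in the second series.

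Arrays B and A differed at every step for some members. At the 8 matched steps, 4 of the 11 probe sets were lower on array B every time, against 24.5% of all probe sets, and 0 were higher every time, against 8.16% of all. These were TSHR (215443_at), on average 8.04-fold lower on array B, DUOX1 (215800_at), 5.03-fold lower, DUOX1 (1565795_at), 4.25-fold lower, and IYD, 4.19-fold lower. The median over all probe sets was also lower on array B, by a log2 difference of -0.52, and scan medians ran from 52.7 to 63.8 on array B and from 86.3 to 136 on array A. Relative to the scan medians, the first 3 of these probe sets stayed lower on array B at all 8 steps, against 12.9% of all, and IYD at 7 of 8.

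SLC26A4 had a mean log2 difference of -2.73 (SD 2.08, 8 steps), lower on array B at 7 steps. DUOX2 went the other way, with a mean of 1.55 (SD 2.09), and it was lower on array B at 3 steps. The difference was unsteady for TG as well, at -1.47 (SD 1.63). With 1 array for each protocol, the array itself and the 2 cycles before each staining cannot be told apart, and no test was made. At the start of the second series array B had had 21 stringent cycles in total and array A 17.

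**Figure D3:**
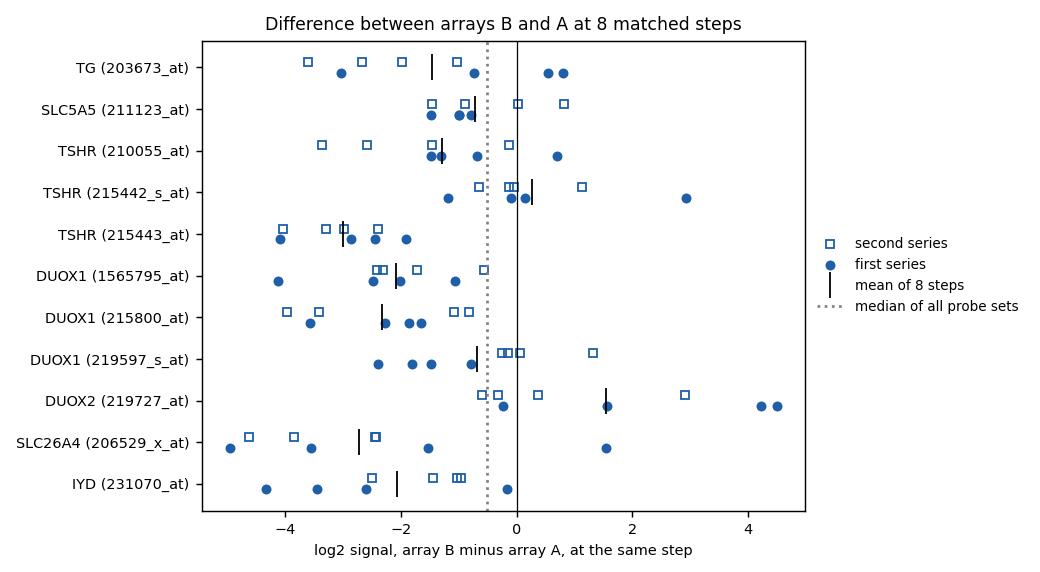
Log2 signal of array B minus array A at 8 matched steps for each of the 11 probe sets, with open squares for the second series, filled circles for the first series and a bar for their mean. All 8 points of TSHR (215443_at), DUOX1 (1565795_at and 215800_at) and IYD lie below 0, while the mean of DUOX2 is 1.55.

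Re-labelling was tested over 9 pairs of scans with the same array and the same number of additional cycles. The second series also had more washing in total, so re-labelling and total washing cannot be told apart. Among all probe sets, 0.294% were higher and 0.541% lower in the second series at a limma adjusted p of 0.05, and 0 of the 11 members were called in either direction. Over all probe sets the call was 161 higher and 296 lower, 254 and 290 with scans centred on their medians, and 290 and 282 after quantile normalization, with 0 members each time. At an unadjusted p under 0.05, 1 member was higher, against 8.34% of all probe sets, and 1 was lower, against 11.3% of all. TSHR (215443_at) had a log2 change of 0.93 (SE 0.27, limma adjusted p = 0.115) and was higher in the second series in 8 of 9 pairs. DUOX2 had -1.35 (SE 0.60, limma adjusted p = 0.251) and was lower in 7 of 9 pairs. Its log2 change was -0.36 without array B, -1.90 without array A and -0.90 without the pair of array B at 17 cycles.

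None of the 11 probe sets changed in the same direction in all 9 pairs. Few of all probe sets did so either, with 1.72% higher and 2.2% lower in every pair. DUOX2 was lower in all 4 pairs of array B, by a mean log2 change of -2.59, and in 3 of 4 pairs of array A. TG was lower in all 4 pairs of array B, with a mean of -1.24, and had a mean of 0.48 on array A. IYD had 0.82 (SE 0.56, limma adjusted p = 0.449). Its pair on array C, 31.3-fold higher in the second series, had the widest change of its 9 pairs. The first-series signal of that pair was 1.43, at the 0.6th percentile of its scan, so this fold rests on a value near the floor. Without that pair the log2 change was 0.30, and without array A it was 1.69.

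**Figure D4:**
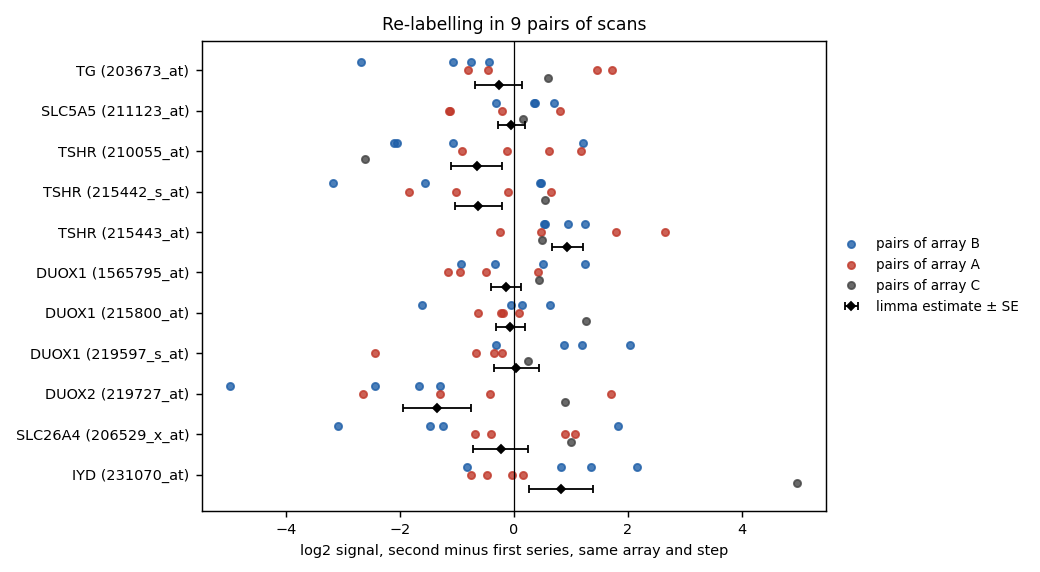
Log2 signal of the second minus the first series in 9 pairs of scans for each of the 11 probe sets, coloured by array (B blue, A red, C grey), with the limma estimate and its SE as a black diamond and bar. TSHR (215443_at) has 8 of 9 points above 0, DUOX2 has 7 of 9 below 0, and the grey point of IYD lies at 4.97.

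The scan just before and the scan just after the second staining were also compared. On array A no stringent cycle lies between them, and 9 of 11 members were higher after the second staining, where 61.7% of all probe sets were higher. SLC26A4 was 13.3-fold higher, TSHR (215442_s_at) 5.57-fold and TG 4.68-fold. SLC26A4 rose from 8.37 and TSHR (215442_s_at) from 5.445, low values at percentiles 7.2 and 3.0 of the scan before. On array B, with 2 further cycles between the scans, 5 of 11 were higher, where 60.3% of all were higher, and DUOX2 was 8.14-fold lower. On array C, with 6 further cycles, 10 of 11 were higher, where 54.6% of all were higher, and TSHR (210055_at), 6.11-fold lower, was the exception.

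Genes that act beside the members were taken as a list of 32, of which 29 are analysed here with 1 probe set each. Each gene stands as its brightest probe set on array C after the first staining. This choice can raise counts on that scan for genes with several probe sets, such as GNAS with 12. Taken so, 25 of the 29 were above the median of that scan, as was 1 of the 7 synthesis genes. All 10 genes of the signal from the TSH receptor were, led by GNAS, the stimulatory G protein subunit, at 12260, PRKAR1A, a regulatory subunit of protein kinase A, at 9346, and PRKACB, a catalytic subunit, at 1658. All 11 genes of thyroglobulin folding and release were, led by the chaperones HSPA5 at 12440 and CANX at 8808 and by PDIA3, a disulfide isomerase, at 5649. Of the 4 synthesis partners only ANO1, a chloride channel that also passes iodide, was, at 91.5, while DUOXA2, the maturation factor of DUOX2, had 31.4 and KCNQ1, a potassium channel subunit, had 16.9.

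In the washing tests 0 of the 29 genes passed the adjusted threshold in either direction after the first staining, after the second staining or in the interaction. Their changes were mostly above the median of all probe sets, for 23 of 29 genes after the first staining and for 25 of 29 after the second. The folding and release genes had a median log2 change of 0.75 after the first staining, with all 11 above the median of all probe sets, compared with -0.87 for the 11 member probe sets. Each scan was scaled to an equal trimmed mean, so a positive change does not mean that the raw intensity rose. The lists also differed in brightness, with a median signal on array C after the first staining of 2411 for folding and release and 38.9 for the 7 synthesis genes. The part of signal level in this contrast was not tested. HSPA5 had 1.27 (SE 0.26, limma adjusted p = 0.192). The largest change of the 29 genes after the first staining went the other way, FOXE1 with -4.09 (SE 0.32, limma adjusted p = 0.192). FOXE1 is named here after its values were seen. After the second staining it had 0.28 (SE 0.39, limma adjusted p = 0.7475), so the fall was not seen again. Its interaction was 4.37 (SE 0.51, limma adjusted p = 0.334). Over all scans the FOXE1 signal ran from 3.59 to 139, which includes weak values.

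Re-labelling gave 1 call higher and 0 lower among the 29 genes, against 0.294% higher and 0.541% lower among all probe sets. This was KCNE2, a potassium channel subunit that is known in mice to work with KCNQ1 in thyroid iodide uptake, named here after its values were seen. Its signal in the second series ran from 55.1 over a median of 110.0 to 209, and in the first series from 10.3 over a median of 20.4 to 104. It was higher in the second series in 9 of 9 pairs, by 1.85-fold to 16.8-fold, with a log2 change of 2.19 (SE 0.32, limma adjusted p = 0.0286). With each array reduced to 1 value the change was 2.50 with an adjusted p of 0.777, and leaving out single pairs moved the adjusted p to between 0.0302 and 0.0666. The call was lost without the pairs of array B at 0, 2 or 7 cycles or of array A at 2 or 7 cycles, and it was 0.164 without array B and 0.0908 without array A.

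The probe sets most like each member were looked up by Pearson's r of log2 signals, centred on the scan medians, over the 18 scans, which share 1 RNA sample and 3 arrays. For TG they belonged to HIRA (0.87), KCNK9 (0.86) and MPEG1 (0.86), and for SLC5A5 to HRK (0.76), CEBPE (0.72) and MBD2 (0.70). DUOX2 came closest to TSPYL2 (0.90), TMEM150C (0.90) and PLEK (0.89), and DUOX1 (1565795_at) to CD93 (0.87), TSPO2 (0.87) and SIN3A (0.86). For SLC26A4 they were DSC3 (0.86), ACTN2 (0.85) and KDM6B (0.84), for IYD PDCD2 (0.88), ONECUT2 (0.85) and MTHFD2L (0.84), and for TSHR (215442_s_at) C7orf57 (0.84), MBNL2 (0.83) and SOX7 (0.83). These were the highest of the correlations with 41097 probe sets that have 1 symbol and are given as a description only. No member was among the probe sets named for another member.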

How the data were processed

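RNA of 1 FTC-133 sample was measured in 18 scans of 3 arrays, grouped by staining series and by additional stringent cycles as the labels give them. The deposited values are MAS5 signals, an intensity per probe set on a linear scale. The authors computed them from the perfect-match and mismatch probes (MAS5 version not given in the sources used here) and scaled each scan, and the mean without the lowest and highest 2% was checked to be 250.02 to 250.06 in all scans. As intensities they give no read depth, and 3 arrays with 1 RNA sample set the precision. No pair of scans was identical.

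Symbols came from the platform annotation: 41097 probe sets have 1 symbol, 1801 several and 11777 none. The 11 member probe sets matched the RefSeq gene table. Tests were made on log2 signals without an offset or filter with limma 3.58.1 in R 4.3.3, over all 54675 probe sets with Benjamini-Hochberg adjustment. The array (for washing) or the pair of scans (for re-labelling) was the block, because arrays A, B and C were each scanned repeatedly, and the replicate number of the scans of A and B stands for the array. The scripts were tested on simulated data. Python 3.11.15 with pandas 2.3.3 made the descriptions. All probe sets of the 7 genes are named. Of the other genes, up to 3 per role with the highest signal on array C after the first staining are named, and for likeness the 3 highest r. The members and gene lists were chosen with earlier results of these data known. Alternatives were median centring, quantile normalization, an offset of 16, brighter probe sets only, trend and robust moderation, no block, arrays as units and leaving out scans, pairs or arrays.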

Additional observations from a re-analysis of the deposited data

How the results depend on the processing

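None of the 11 member probe sets was called in any comparison under any alternative run, and their lowest adjusted p was 0.0603, after the second staining. Counts over all probe sets moved. Under a variance trend and robust eBayes, 1954 probe sets were called higher and 661 lower after the first staining, 1301 and 245 after the second, 21 and 757 in the interaction, and 836 and 998 in re-labelling. Among brighter probe sets only (27337, with TG and SLC5A5 the only members), 542 were called higher and 163 lower after the first staining, and 104 and 141 in re-labelling. Re-labelling gave 254 higher with median centring, 290 higher with quantile normalization, and 361 higher and 606 lower with the offset. Without the replicate block it gave 24 higher and 99 lower, and the washing tests gave 0, as with it. With arrays as units it gave 0 higher and 0 lower. Leaving out single pairs or arrays gave 0 to 202 higher and 0 to 533 lower: without array B 0 and 0, without array A 26 and 24, and without the pair of array A at 7 cycles 11 and 18. In the 3 washing tests, leaving out single scans gave 0 calls each time.

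Members whose log2 change turned sign were not called before or after. After the first staining these were TSHR (215442_s_at), DUOX1 (1565795_at) and DUOX1 (219597_s_at) with median centring (0.01, 0.06 and 0.34) and with quantile normalization (0.85, 0.25 and 0.95), DUOX2 with quantile normalization (0.26) and IYD with the offset (-0.13). In the interaction TG had -0.02 with centring. In re-labelling DUOX1 (219597_s_at) had -0.01 with the offset, and with arrays as units SLC5A5 had 0.01, DUOX1 0.00 (1565795_at) and 0.26 (215800_at), and SLC26A4 0.07. The cause was not tested. KCNE2 kept its direction throughout, with log2 changes of 1.96 to 2.51 when pairs or arrays were left out. Averaging its probe sets gave TSHR 19.7 and DUOX1 5.075 on array C after the first staining. Spread differed with signal: over 10 classes of equal size by signal on array C after the first staining, the median SD was 1.19 in the dimmest, 1.02 to 1.06 in the next 4, 0.54 in the class from 300.2 to 822 and 0.69 in the brightest.

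Leaving out single scans, pairs or arrays turned the sign of further uncalled changes, whose log2 values then ranged as follows. After the first staining they were DUOX1 (1565795_at) -1.53 to 0.74, DUOX1 (219597_s_at) -0.67 to 0.43, DUOX2 (219727_at) -2.71 to 0.96, IYD (231070_at) -1.25 to 2.05, SLC26A4 (206529_x_at) -3.61 to 1.28, TG (203673_at) -2.72 to 0.51 and TSHR (215442_s_at) -2.10 to 1.21. After the second staining they were DUOX1 (1565795_at) -0.30 to 0.44, DUOX1 (215800_at) -0.79 to 1.40, IYD (231070_at) -1.15 to 0.20, SLC5A5 (211123_at) -0.69 to 0.74 and TSHR (210055_at) -1.95 to 0.39. In the interaction they were DUOX1 (1565795_at) -0.67 to 1.60, DUOX1 (215800_at) -0.11 to 2.08, DUOX2 (219727_at) -3.05 to 0.62, IYD (231070_at) -2.52 to 0.78, SLC26A4 (206529_x_at) -4.11 to 0.77 and TG (203673_at) -1.48 to 1.76. In re-labelling they were DUOX1 (1565795_at) -0.35 to 0.18, DUOX1 (215800_at) -0.23 to 0.12, DUOX1 (219597_s_at) -0.69 to 0.80, SLC26A4 (206529_x_at) -0.60 to 0.37, SLC5A5 (211123_at) -0.30 to 0.25 and TG (203673_at) -0.87 to 0.51.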
